A study of Mus musculus with 18 samples.

Results

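The 36 listed endothelial genes were followed in 18 tumors grown from K7M2 cells, a mouse osteosarcoma line of Balb/c origin. They were taken by symbol from a list of genes used by blood vessel endothelium, and all 36 were present among the 20878 genes of the expression matrix. Endothelial cells line blood vessels and are held together by cadherin 5, claudin 5 and related junction proteins. They receive growth signals through the VEGF receptors and the Tie receptors, and their identity depends on transcription factors such as Erg and the SoxF factors (Sox7, Sox17 and Sox18). In a grafted tumor the vessels come largely from the host, so endothelial RNA in bulk tumor RNA depends on how many endothelial cells are present and how much RNA each makes. Fewer endothelial cells and less RNA per cell cannot be told apart here, and other cells of the tumor may also express some of the listed genes.

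K7M2 cells carried either a control shRNA (ATRXCT) or an shRNA against Atrx (ATRXKD), delivered by lentivirus, and were grafted under the skin of mice several weeks old. The hosts were syngeneic Balb/c mice (Balb/cJ), which have a working immune system, or NSG mice (NOD.Cg-Prkdc scid Il2rg tm1Wjl/SzJ), which lack T, B and natural killer cells. There were 4 Balb/c ATRXCT, 4 Balb/c ATRXKD, 5 NSG ATRXCT and 5 NSG ATRXKD tumors, 1 mouse each. Whole cages were assigned to a kind of cell, and the labels do not give the cage, so cage and shRNA cannot be told apart. Both kinds of cell carried a lentiviral shRNA, so every group shares the transduction. The study's methods name female hosts in both strains, yet 4 Y-linked genes summed to between 24.2 and 34.3 FPKM in NSG ATRXCT tumors and between 13.1 and 21.2 FPKM in NSG ATRXKD tumors, against at most 0.0115 FPKM in any Balb/c tumor.

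Levels are in FPKM, fragments scaled by transcript length and library size, recovered from the deposited log2 values. The libraries held an estimated 14850000 to 25100000 fragments. Libraries differed in how strongly level depended on transcript length, with a slope of 0.10 to 0.21 log2 units per doubling of length in 6 libraries and of -0.15 to 0.00 in the other 12. The 6 libraries with the steeper slope were Balb/c ATRXCT mice 43 and 45, Balb/c ATRXKD mice 56 and 60, NSG ATRXCT mouse 3 and NSG ATRXKD mouse 27. Atrx, the target of the shRNA and a long transcript, was at 13.4, 26.0, 10.3 and 20.7 FPKM in Balb/c ATRXCT mice 41, 43, 44 and 45 and at 21.5, 7.88, 9.11 and 17.3 FPKM in the libraries labelled Balb/c ATRXKD, mice 56, 58, 59 and 60. In NSG hosts it was at 16.2, 11.6, 24.4, 15.1 and 20.5 FPKM in ATRXCT mice 1 to 5 and at 8.42, 16.4, 8.59, 8.88 and 8.59 FPKM in ATRXKD mice 26 to 30. The libraries labelled Balb/c ATRXKD 56 and 60 and NSG ATRXKD 27 thus lay inside the range of their controls, and all 3 are among the steep libraries. Atrx differed by -0.34 on the log2 scale in Balb/c (SE 0.36, limma adjusted p = 0.999) and by -0.74 in NSG hosts (SE 0.22, adjusted p = 0.0610). Results on the listed genes are therefore also given without the 6 steep libraries.

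**Figure D1:**
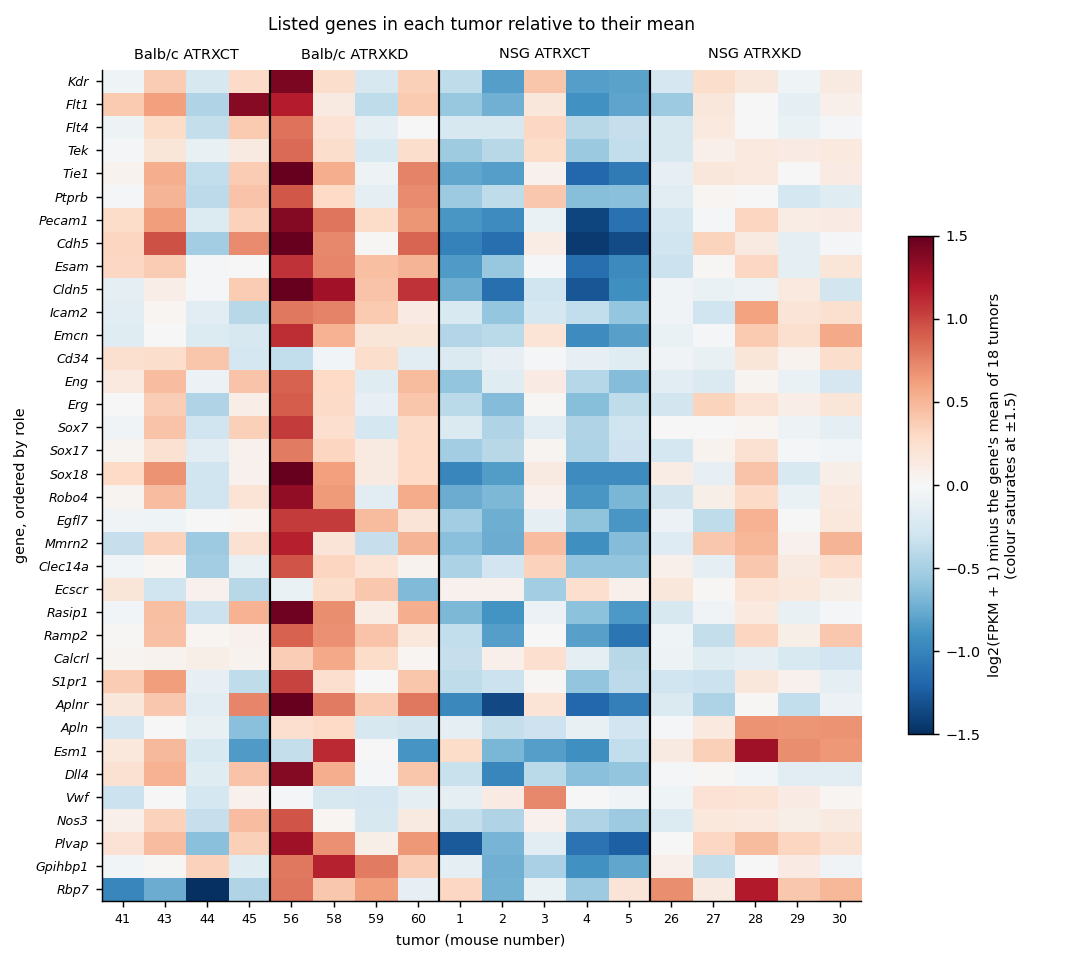
Each row is a listed gene and each column a tumor, coloured by log2(FPKM + 1) minus the mean of that gene over the 18 tumors, with groups separated by black lines and the colour saturating beyond 1.5 units. The column of Balb/c ATRXKD mouse 56 is red for most genes, 4 of the 5 NSG ATRXCT columns are mostly blue, and the rows of Cd34 and Ecscr do not follow the others.

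Most listed genes were measured at low to moderate level. Over the 18 tumors the highest medians belonged to Cd34 (114 FPKM, between 91.6 and 158), a sialomucin of vessels and of several stem cell types, and Ecscr (56.9 FPKM, between 34.0 and 72.2), which modulates endothelial migration. Vwf, the blood clotting protein von Willebrand factor, had the lowest median (0.404 FPKM, between 0.137 and 1.34). The defining markers were present in every tumor, with Pecam1 between 5.27 and 41.3 FPKM, Cdh5 between 3.17 and 36.7 FPKM and Kdr between 1.39 and 10.3 FPKM. The mean log2(FPKM + 1) of the 36 genes was 2.64 ± 0.23 (SD, n = 4) in Balb/c ATRXCT, 3.05 ± 0.38 (n = 4) in Balb/c ATRXKD, 2.12 ± 0.28 (n = 5) in NSG ATRXCT and 2.66 ± 0.14 (n = 5) in NSG ATRXKD tumors. Balb/c ATRXKD mouse 56 had the highest mean of all (3.56), and NSG ATRXCT mouse 3 (2.604) stood above the other 4 tumors of its group (1.90 to 2.12).

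Promoter windows from RefSeq on GRCm38.p6, 300 bases each around the annotated start, were found for 19 of the 36 genes. The windows were searched for AGGAAG on both strands (CTTCCT on the strand printed), a sequence holding the GGAA core bound by Erg and other ETS factors. Only the first window of each gene was used, and Egfl7 and Erg have 3 each. AGGAAG was present in 11 of the 19 windows (57.9%) and in 9487 of 27006 windows of all other genes (35.1%), expressed here or not. The difference between these shares, and any link of the sequence to the levels, was not tested. Windows of 4 genes that rose in ATRXKD tumors in the comparison averaged over hosts are printed 5′ to 3′ on the strand of the gene, with each match in capitals: Egfl7 (chr2:26580833-26581132, plus strand, 3 matches), Rbp7 (chr4:149454919-149455218, minus strand, 2 matches that overlap each other), Emcn (chr3:137340828-137341127, plus strand, 2 matches) and Cldn5 (chr16:18776597-18776896, plus strand, no match).
Egfl7: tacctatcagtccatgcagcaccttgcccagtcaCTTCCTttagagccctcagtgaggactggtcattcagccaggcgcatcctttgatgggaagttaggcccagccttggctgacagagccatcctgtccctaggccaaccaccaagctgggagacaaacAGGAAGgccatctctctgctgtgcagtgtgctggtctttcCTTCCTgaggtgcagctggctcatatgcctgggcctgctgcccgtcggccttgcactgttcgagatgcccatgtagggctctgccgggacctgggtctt
Rbp7: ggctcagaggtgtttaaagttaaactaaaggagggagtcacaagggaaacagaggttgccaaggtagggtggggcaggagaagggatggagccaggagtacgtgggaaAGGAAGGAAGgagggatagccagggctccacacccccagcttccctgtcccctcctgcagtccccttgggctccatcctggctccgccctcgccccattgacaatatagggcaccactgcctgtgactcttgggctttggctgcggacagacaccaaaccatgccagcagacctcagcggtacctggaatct
Emcn: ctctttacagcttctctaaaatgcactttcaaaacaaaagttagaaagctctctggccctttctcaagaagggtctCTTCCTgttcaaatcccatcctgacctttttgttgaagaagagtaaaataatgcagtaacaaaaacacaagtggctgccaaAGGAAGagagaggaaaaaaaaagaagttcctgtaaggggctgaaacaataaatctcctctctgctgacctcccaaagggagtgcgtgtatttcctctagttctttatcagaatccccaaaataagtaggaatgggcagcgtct
Cldn5: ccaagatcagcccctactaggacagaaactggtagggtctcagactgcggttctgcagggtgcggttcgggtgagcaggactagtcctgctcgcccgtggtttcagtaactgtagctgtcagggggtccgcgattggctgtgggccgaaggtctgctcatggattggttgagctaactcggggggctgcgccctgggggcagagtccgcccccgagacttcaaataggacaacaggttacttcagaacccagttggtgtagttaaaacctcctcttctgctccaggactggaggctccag
A match describes these letters only, and the absence of a match in the window of Cldn5 says nothing about any factor.

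The first question was whether knock-down of Atrx in the tumor cells came with a change in endothelial genes in each host. A gene is said to have passed when its limma adjusted p, taken over all genes tested, was under 0.05. Unless a tumor left out or another setting is named, calls are those of the main fit with all tumors of the comparison. All 36 genes were tested in every comparison. In NSG hosts 10 of the 36 rose in ATRXKD tumors and none fell, where 3.73% of all 14654 genes tested rose. They were Plvap, Esm1, Pecam1, Tie1, Cldn5, Apln, Rasip1, Gpihbp1, Dll4 and Sox7. The median difference of the 36 was 0.55 on the log2(FPKM + 1) scale, against -0.0014 over all genes, and 34 of 36 were above 0. The 5 genes whose NSG groups did not overlap, all higher in ATRXKD, were Cldn5, Sox7, Plvap, Apln and Dll4, against 4.36% of all genes. This scale understates the change of genes below a few FPKM.

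In Balb/c hosts none of the 36 passed in limma, where 0.0% of all 14701 genes rose and 1 gene fell. Of the 36, 8 were higher at an unadjusted limma p under 0.05, where 1.72% of all genes were. The median difference was 0.39, against -0.0032 over all genes, with 33 of 36 above 0. The Balb/c groups did not overlap for 8 genes, all higher in ATRXKD, against 1.25% of all genes: Emcn, Esam, Cldn5, Egfl7, Clec14a, Icam2, Gpihbp1 and Rbp7. Without Balb/c ATRXKD mouse 56 the median was 0.20.

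Averaged over both hosts, 9 of the 36 rose and none fell, where 1.37% of all 14803 genes rose. These were Cldn5, Rbp7, Gpihbp1, Icam2, Egfl7, Plvap, Esam, Emcn and Pecam1, with a median over the 36 of 0.53, against -0.0023 over all genes, and 34 above 0. The difference of the knock-down effect between hosts was tested directly: none of the 36 passed, as 0.0% of all genes did, and 1 of the 36 (Cd34) had an unadjusted p under 0.05, as had 1527 of all genes. The median of that difference, Balb/c effect minus NSG effect, was -0.10, and it ran from -0.31 without Balb/c ATRXKD mouse 56 to 0.04 without Balb/c ATRXKD mouse 59. With library weights the median was -0.43 and 5 of the 36 passed (Pecam1, Flt1, Plvap, Nos3 and Cd34). A like share of all genes passed under that setting, so nothing about the listed genes is read from this count. Without the 6 steep libraries the median was -0.38 with none passing. Whether any of the 36 genes passed for the difference between hosts therefore depended on the weighting of the libraries.

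In NSG hosts and averaged over hosts the number of genes that passed depended on single tumors. Leaving out NSG ATRXCT mouse 3 raised the NSG count from 10 to 28 and the averaged count from 9 to 19. Without that tumor 2080 of all genes passed in NSG hosts and 376 averaged over hosts. The NSG count was 1, Plvap alone, without NSG ATRXCT mouse 4 or without NSG ATRXKD mouse 28, 29 or 30, while it was 3 without ATRXCT mouse 5, 5 without mouse 1 and 6 without mouse 2. All genes that passed were 268 without NSG ATRXCT mouse 4, and 237, 311 and 144 without NSG ATRXKD mice 28, 29 and 30. They were 319, 887 and 537 without NSG ATRXCT mice 1, 2 and 5. With all NSG tumors 547 of all genes rose and 447 fell. The count of all genes thus also depended on single tumors. The NSG median of the 36 stayed between 0.50 and 0.66 over the 10 leave-outs. Cldn5 and Esm1 passed in NSG hosts in 6 of the 10, Pecam1, Apln and Dll4 in 4, Gpihbp1 in 3, and Tie1 and Rasip1 in 2. Cldn5, Egfl7, Plvap, Icam2, Gpihbp1 and Rbp7 passed the averaged comparison with any 1 of the 18 tumors left out, whereas Esam passed in 9, Pecam1 in 8 and Emcn in 7 of the 18. Without the 6 steep libraries 28 of the 36 passed in NSG (4 against 4 tumors), 17 in the averaged comparison and none in Balb/c hosts (2 against 2). The number of all genes that passed in NSG hosts rose in that fit as well. For the averaged comparison that number is not given, so nothing about the listed genes is read from the 17.

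**Figure D2:**
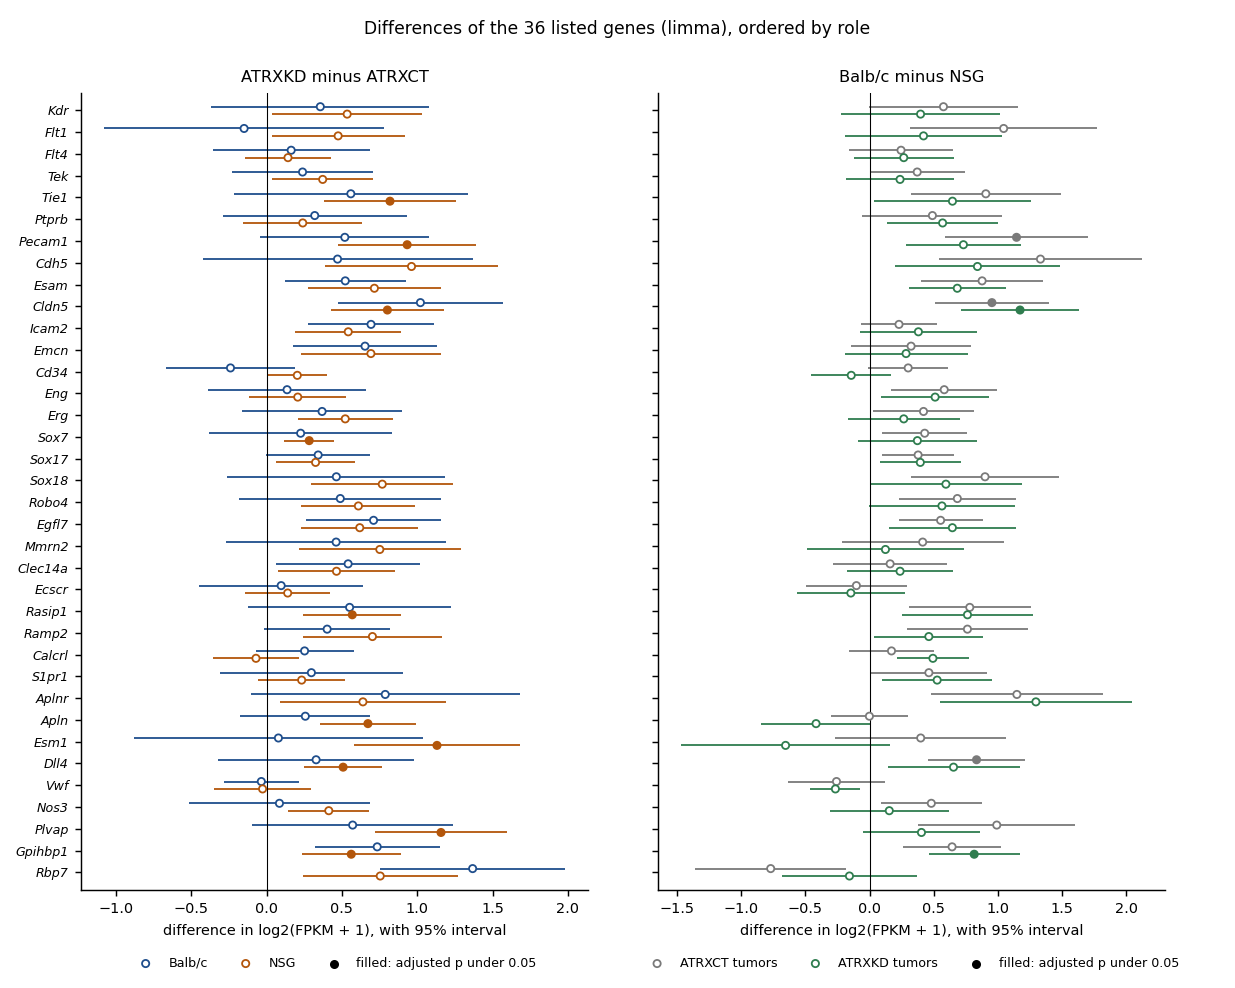
The difference in log2(FPKM + 1) of each listed gene is shown with its 95% interval from limma, ATRXKD minus ATRXCT in each host on the left and Balb/c minus NSG for each kind of tumor on the right, with filled points for an adjusted p under 0.05. The left panel shows nearly all points right of 0, filled for 10 genes in NSG and for none in Balb/c hosts; in the right panel Pecam1, Cldn5 and Dll4 are filled in ATRXCT and Cldn5 and Gpihbp1 in ATRXKD tumors.

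Of the junction and adhesion genes, 4 of 5 rose in the averaged comparison, where 1.37% of all genes rose. Counts by role divide the same calls given above and were not tested as sets. Values are given in the order of mouse number within each group. Cldn5 (chromosome 16, 18776847 to 18778262, plus strand, a single exon), the main claudin of endothelial tight junctions, was at 9.84, 11.8, 10.6 and 14.5 FPKM in Balb/c ATRXCT, 35.8, 27.4, 15.0 and 24.3 in Balb/c ATRXKD, 6.18, 4.43, 8.69, 3.89 and 5.28 in NSG ATRXCT and 10.51, 10.1, 10.2, 12.2 and 8.84 in NSG ATRXKD tumors. Every ATRXKD tumor lay above every ATRXCT tumor of its host, by a small margin between Balb/c mice 59 and 45 and between NSG mice 30 and 3. Cldn5 differed by 1.02 in Balb/c (SE 0.24, adjusted p = 0.492), 0.80 in NSG (SE 0.17, adjusted p = 0.0240) and 0.91 averaged over hosts (SE 0.15, adjusted p = 0.00615).

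Pecam1 (CD31, chromosome 11, 106654213 to 106715281, minus strand), an adhesion molecule at endothelial contacts, was at 18.7, 24.3, 13.2 and 19.7 FPKM in Balb/c ATRXCT, 41.3, 27.5, 18.7 and 24.9 in Balb/c ATRXKD, 7.93, 7.47, 14.3, 5.27 and 6.49 in NSG ATRXCT and 12.5, 15.0, 19.3, 16.6 and 16.7 in NSG ATRXKD tumors. NSG ATRXCT mouse 3 was the only control in that host to reach the ATRXKD range, and the Balb/c groups overlapped. Its difference was 0.52 in Balb/c (SE 0.25, adjusted p = 0.999), 0.93 in NSG (SE 0.21, adjusted p = 0.0280) and 0.73 averaged (SE 0.17, adjusted p = 0.0334).

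Cdh5 (VE-cadherin, chromosome 8, 104101625 to 104144502, plus strand), the cadherin of endothelial adherens junctions, was at 13.1, 20.9, 6.88 and 17.4 FPKM in Balb/c ATRXCT, 36.7, 17.6, 10.4 and 19.7 in Balb/c ATRXKD, 4.57, 4.14, 11.2, 3.17 and 3.45 in NSG ATRXCT and 8.13, 13.3, 11.4, 9.17 and 10.1 in NSG ATRXKD tumors. Again NSG ATRXCT mouse 3 was the control that overlapped the ATRXKD tumors, while the Balb/c values were interleaved apart from mouse 56. The NSG difference of Cdh5, 0.96 (SE 0.26), missed the threshold (adjusted p = 0.0502), as did the averaged difference, 0.72 (SE 0.25, adjusted p = 0.135).

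Esam, an immunoglobulin-type adhesion molecule of tight junctions, was at 9.14, 9.67, 7.06 and 7.19 FPKM in Balb/c ATRXCT, 16.2, 12.6, 10.2 and 10.7 in Balb/c ATRXKD, 3.53, 4.52, 7.01, 2.74 and 3.22 in NSG ATRXCT and 5.52, 7.28, 9.12, 6.46 and 8.27 in NSG ATRXKD tumors. The Balb/c groups did not overlap and the NSG groups did. It differed by 0.62 averaged over hosts (SE 0.14, adjusted p = 0.0305). Icam2, a ligand for leukocyte integrins, was at 4.52, 5.32, 4.502 and 3.62 FPKM in Balb/c ATRXCT, 9.72, 9.37, 7.13 and 5.71 in Balb/c ATRXKD, 4.25, 3.13, 4.15, 3.76 and 3.12 in NSG ATRXCT and 4.94, 4.00, 8.40, 6.05 and 6.30 in NSG ATRXKD tumors. All Balb/c ATRXKD tumors were above all their controls, and in NSG hosts only ATRXKD mouse 27 was inside the control range. The averaged difference of Icam2 was 0.62 (SE 0.12, adjusted p = 0.0149).

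Among capillary genes all 3 rose in the averaged comparison, where 1.37% of all genes rose. Rbp7 (chromosome 4, 149449701 to 149454968, minus strand), a retinol-binding protein found in capillary endothelium and also in fat tissue, had the largest averaged difference of the 36. It was at 1.37, 1.78, 0.553 and 2.42 FPKM in Balb/c ATRXCT, 7.13, 5.18, 6.19 and 3.29 in Balb/c ATRXKD, 4.79, 1.87, 3.34, 2.19 and 4.34 in NSG ATRXCT and 6.55, 4.12, 9.64, 5.18 and 5.61 in NSG ATRXKD tumors. The Balb/c groups were apart, and the NSG groups overlapped at ATRXKD mouse 27. Rbp7 differed by 1.37 in Balb/c (SE 0.27, adjusted p = 0.388), 0.75 in NSG (SE 0.23, adjusted p = 0.0709) and 1.06 averaged (SE 0.19, adjusted p = 0.00930). The lowest tumor, Balb/c ATRXCT mouse 44, rests on an estimated 6.98 fragments.

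Gpihbp1, which carries lipoprotein lipase to the capillary surface, was at 18.4, 19.2, 24.4 and 16.6 FPKM in Balb/c ATRXCT, 33.4, 43.3, 33.3 and 24.7 in Balb/c ATRXKD, 17.2, 11.1, 13.3, 9.63 and 10.6 in NSG ATRXCT and 20.1, 14.5, 18.9, 20.7 and 18.2 in NSG ATRXKD tumors. The Balb/c groups met without overlapping, at 24.4 and 24.7 FPKM, and in NSG hosts ATRXCT mouse 1 was above ATRXKD mouse 27. Gpihbp1 rose by 0.56 in NSG (SE 0.15, adjusted p = 0.0483) and by 0.65 averaged over hosts (SE 0.12, adjusted p = 0.0116). Plvap, the protein of the diaphragms of fenestrated capillaries, was at 14.2, 17.0, 7.51 and 15.8 FPKM in Balb/c ATRXCT, 30.6, 20.1, 12.9 and 19.5 in Balb/c ATRXKD, 4.49, 7.07, 10.8, 5.11 and 4.59 in NSG ATRXCT and 12.2, 15.3, 17.3, 15.3 and 14.4 in NSG ATRXKD tumors. All 5 NSG ATRXKD tumors were above all NSG controls, including mouse 3. Its NSG difference of 1.16 (SE 0.20, adjusted p = 0.0137) was the largest of the 36 in that host and passed with any 1 of the 10 tumors left out, and the ratio of mean FPKM was 2.32.

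**Figure D3:**
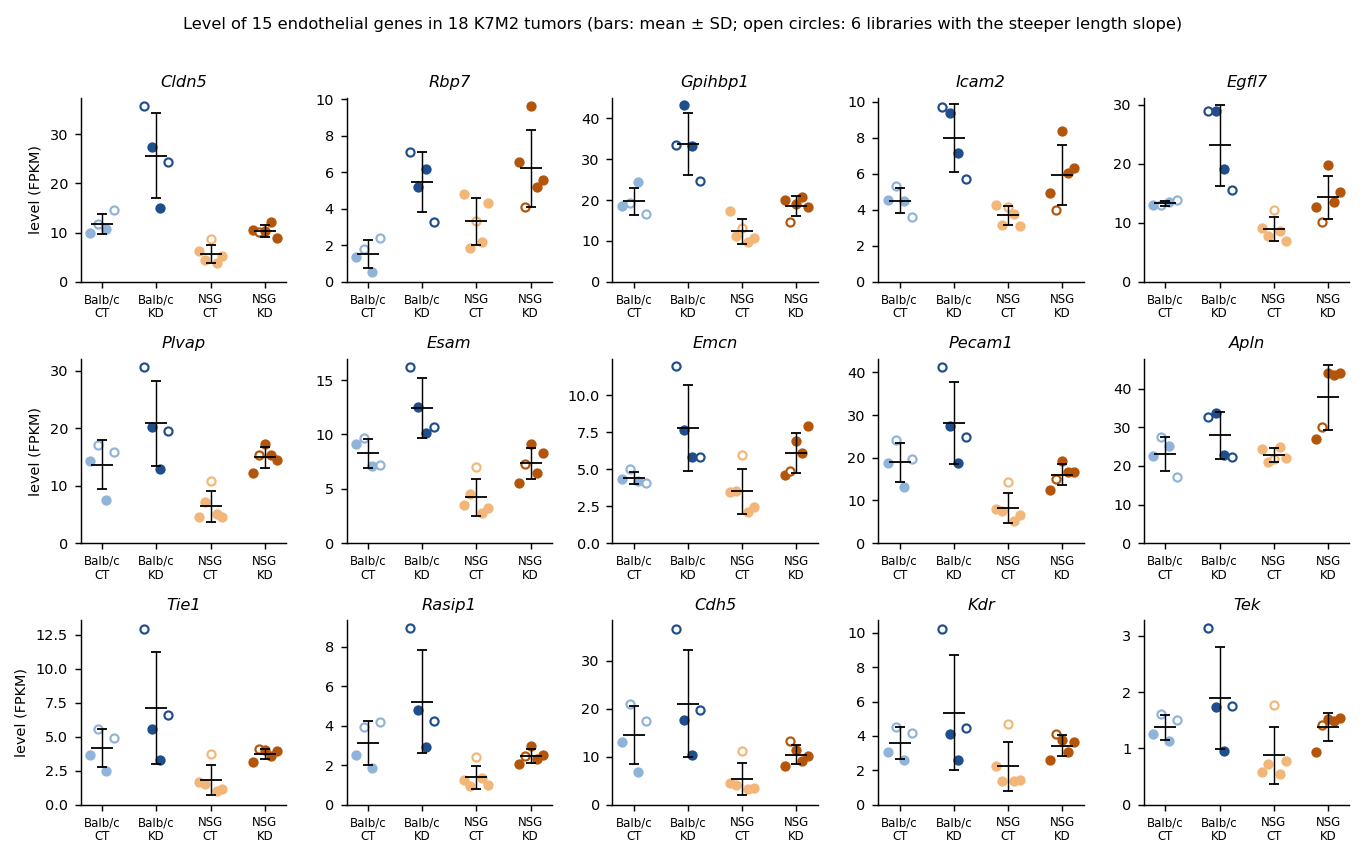
Level in FPKM of 15 listed genes, 1 panel each, in every tumor by host and shRNA (CT, ATRXCT; KD, ATRXKD), with bars for the group mean and SD and open circles for the 6 libraries with the steeper length slope. In the Cldn5 panel the ATRXKD tumors lie above the controls of the same host in both hosts, and the open circle of NSG ATRXCT is the highest control of its group in panels such as Cdh5, Tie1 and Tek.

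None of the 3 VEGF receptors passed in the main fit of any comparison between ATRXKD and ATRXCT tumors. In NSG hosts Kdr and Flt1 each passed in 1 of 10 leave-outs, the one without ATRXCT mouse 3, and in 3 of 9 other settings. Flt4 passed there in 1 of 8 other settings. Kdr (VEGFR2), the main signalling receptor for VEGF-A, was at 3.06, 4.53, 2.602 and 4.18 FPKM in Balb/c ATRXCT, 10.3, 4.10, 2.602 and 4.45 in Balb/c ATRXKD, 2.27, 1.39, 4.68, 1.40 and 1.43 in NSG ATRXCT and 2.58, 4.10, 3.78, 3.05 and 3.67 in NSG ATRXKD tumors. Balb/c values were interleaved apart from mouse 56, and in NSG hosts mouse 3 was above every ATRXKD tumor while the other 4 controls were below them. Kdr differed by 0.45 averaged over hosts (SE 0.20, adjusted p = 0.267). Flt1, a VEGF receptor that also acts as a decoy, had the only negative Balb/c difference among the receptors, -0.15 (SE 0.41, adjusted p = 0.999), and 0.47 in NSG (SE 0.20, adjusted p = 0.160). Flt4, the receptor for VEGF-C, was at 0.19995 to 1.82 FPKM and differed by 0.15 averaged (SE 0.13, adjusted p = 0.615).

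Of the Tie receptors, Tie1, an orphan partner of Tek, rose in NSG hosts. It was at 3.67, 5.58, 2.48 and 4.88 FPKM in Balb/c ATRXCT, 12.9, 5.58, 3.29 and 6.55 in Balb/c ATRXKD, 1.64, 1.55, 3.73, 1.00 and 1.16 in NSG ATRXCT and 3.16, 4.08, 3.98, 3.55 and 3.92 in NSG ATRXKD tumors. Mouse 3 alone of the NSG controls reached the ATRXKD values. The NSG difference was 0.82 (SE 0.20, adjusted p = 0.0368) and the averaged one 0.69 (SE 0.20, adjusted p = 0.0822). Tek (Tie2), the angiopoietin receptor, was at 1.26, 1.60, 1.12 and 1.51 FPKM in Balb/c ATRXCT, 3.14, 1.74, 0.955 and 1.75 in Balb/c ATRXKD, 0.578, 0.716, 1.76, 0.549 and 0.777 in NSG ATRXCT and 0.943, 1.42, 1.52, 1.49 and 1.54 in NSG ATRXKD tumors. NSG ATRXCT mouse 3 had the highest Tek of its host. The averaged difference of Tek was 0.31 (SE 0.13, adjusted p = 0.238), and that of Ptprb, the phosphatase that restrains Tek, was 0.28 (SE 0.17, adjusted p = 0.417).

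Surface glycoproteins behaved unequally. Emcn (endomucin), a sialomucin of capillaries and veins, was at 4.31, 5.00, 4.24 and 4.11 FPKM in Balb/c ATRXCT, 11.97, 7.63, 5.82 and 5.84 in Balb/c ATRXKD, 3.44, 3.54, 5.96, 2.14 and 2.42 in NSG ATRXCT and 4.62, 4.90, 6.89, 6.13 and 7.91 in NSG ATRXKD tumors. The Balb/c groups did not overlap, and in NSG hosts mouse 3 was above ATRXKD mice 26 and 27. Emcn rose by 0.67 averaged over hosts (SE 0.16, adjusted p = 0.0329). Eng (endoglin), a coreceptor for BMP9, differed by 0.17 averaged (SE 0.14, adjusted p = 0.566). For Cd34 the Balb/c difference was -0.24 (SE 0.19, adjusted p = 0.999) and the NSG difference 0.20 (SE 0.09, adjusted p = 0.181). The difference between them was -0.44 (SE 0.20, unadjusted p = 0.0374, limma adjusted p = 0.447).

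The 4 transcription factors were low, between 0.179 and 2.94 FPKM for Erg, Sox7 and Sox17 and between 1.97 and 16.004 FPKM for Sox18. Sox7 rose in NSG hosts by 0.28 (SE 0.08, adjusted p = 0.0492), from 0.179 to 0.434 FPKM in ATRXCT to 0.471 to 0.654 FPKM in ATRXKD tumors. Those groups did not overlap, but the call held in 1 of 10 leave-outs, the one without NSG ATRXCT mouse 3. Sox18 differed by 0.77 in NSG (SE 0.21, adjusted p = 0.0540), Erg by 0.52 (SE 0.14, adjusted p = 0.0526) and Sox17 by 0.33 (SE 0.12, adjusted p = 0.110). No factor passed the averaged comparison.

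Among 6 genes of guidance, matrix and vessel stability, Egfl7 passed averaged over hosts and Rasip1 in NSG hosts. Egfl7, a matrix protein that endothelial cells secrete around growing vessels, was at 13.0, 12.9, 13.5 and 13.8 FPKM in Balb/c ATRXCT, 28.9, 29.0, 19.1 and 15.5 in Balb/c ATRXKD, 9.12, 7.71, 12.2, 8.55 and 6.89 in NSG ATRXCT and 12.6, 10.2, 19.8, 13.6 and 15.2 in NSG ATRXKD tumors. The 4 Balb/c controls lay close together and below all 4 ATRXKD tumors, and in NSG hosts mouse 3 overlapped ATRXKD mouse 27. Egfl7 rose by 0.66 averaged (SE 0.14, adjusted p = 0.0190).

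Rasip1, needed for the vessel lumen, was at 2.50, 3.93, 1.87 and 4.17 FPKM in Balb/c ATRXCT, 8.94, 4.82, 2.90 and 4.24 in Balb/c ATRXKD, 1.26, 0.929, 2.40, 1.35 and 0.978 in NSG ATRXCT and 2.05, 2.47, 2.98, 2.33 and 2.53 in NSG ATRXKD tumors. Its NSG groups overlapped at mouse 3. The NSG difference was 0.57 (SE 0.15, adjusted p = 0.0445), and 30.1% of its 75-base windows also occur in transcripts of other genes, so reads of a neighbour may be part of its level. Robo4, Mmrn2, Clec14a and Ecscr did not pass, with averaged differences of 0.55, 0.61, 0.50 and 0.12.

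Receptors coupled to G proteins and their partner did not pass in any knock-down comparison. Aplnr, the apelin receptor, was at 3.53 to 7.50 FPKM in Balb/c ATRXCT, 5.64 to 24.8 in Balb/c ATRXKD, 0.996 to 4.90 in NSG ATRXCT and 2.71 to 4.16 in NSG ATRXKD tumors, and differed by 0.71 averaged (SE 0.24, adjusted p = 0.130). The 24.8 FPKM of Balb/c ATRXKD mouse 56 was well above the 7.85 FPKM of the next tumor. Ramp2, which turns Calcrl into the adrenomedullin receptor, differed by 0.55 averaged (SE 0.15, adjusted p = 0.0603), with 29.5% of its windows shared with other transcripts, and Calcrl itself by 0.09 (SE 0.09, adjusted p = 0.685). S1pr1, the sphingosine 1-phosphate receptor, was at 17.8 to 56.2 FPKM and differed by 0.27 (SE 0.15, adjusted p = 0.385).

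All 3 genes of tip cells and sprouting rose in NSG hosts, where 3.73% of all genes rose, and none passed in Balb/c hosts. Apln (apelin, the ligand of Aplnr) was at 22.6, 27.4, 25.1 and 17.3 FPKM in Balb/c ATRXCT, 32.6, 33.7, 22.9 and 22.3 in Balb/c ATRXKD, 24.5, 21.0, 21.8, 25.01 and 21.99 in NSG ATRXCT and 26.9, 30.1, 44.0, 43.7 and 44.0 in NSG ATRXKD tumors. NSG ATRXKD mice 28, 29 and 30 held nearly the same level, and all 5 were above the controls. Apln rose by 0.67 in NSG (SE 0.15, adjusted p = 0.0256). Esm1 (endocan), a proteoglycan of tip cells, was at 1.32 to 4.32 FPKM in NSG ATRXCT and 3.83 to 9.62 FPKM in NSG ATRXKD tumors, a difference of 1.13 (SE 0.25, adjusted p = 0.0279), and at 1.44 to 5.20 against 1.38 to 8.55 FPKM in Balb/c hosts (0.08, SE 0.43, adjusted p = 0.999). The difference between hosts for Esm1 was -1.05 (SE 0.51, adjusted p = 0.493). Dll4, the Notch ligand of tip cells, rose by 0.51 in NSG (SE 0.12, adjusted p = 0.0306), from 0.544 to 1.40 FPKM in ATRXCT to 1.70 to 2.08 FPKM in ATRXKD tumors.

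The 2 genes of haemostasis and nitric oxide did not pass. Vwf differed by -0.03 in Balb/c (SE 0.11, adjusted p = 0.999) and by -0.03 in NSG (SE 0.15, adjusted p = 0.933). Nos3, the endothelial nitric oxide synthase, differed by 0.09 (SE 0.27, adjusted p = 0.999) and 0.41 (SE 0.12, adjusted p = 0.0623).

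The second question was whether the endothelial genes differed between hosts in tumors of the same cells. Y-linked genes were measured in every NSG tumor and were at or near 0 in every Balb/c tumor, so strain, immune status and sex of the host cannot be told apart. In ATRXCT tumors Pecam1, Cldn5 and Dll4 were higher in Balb/c than in NSG hosts, 3 of 36 where 2.09% of all 14828 genes were higher, and none was lower. The differences were 1.14 for Pecam1 (SE 0.25, adjusted p = 0.0348), 0.95 for Cldn5 (SE 0.20, adjusted p = 0.0299) and 0.83 for Dll4 (SE 0.17, adjusted p = 0.0264). The median of the 36 was 0.48, against 0.0084 over all genes, with 32 above 0, and for Esam, Cldn5, Egfl7, Ramp2 and Dll4 the hosts did not overlap, against 4.72% of all genes. These calls rested on single tumors: none of the 36 passed without Balb/c ATRXCT mouse 41, 43 or 45 or NSG ATRXCT mouse 2, 4 or 5, 2 passed without NSG mouse 1, 14 without Balb/c mouse 44 and 17 without NSG mouse 3. All genes that passed were 975 without Balb/c mouse 44, 825 without NSG mouse 3 and 316 without NSG mouse 1. They were 331, 276 and 339 without Balb/c mice 41, 43 and 45, and 312, 300 and 323 without NSG mice 2, 4 and 5. With all tumors 310 of all genes were higher and 162 lower, so the count of all genes also depended on single tumors.

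In ATRXKD tumors Cldn5 (1.17, SE 0.21, adjusted p = 0.0109) and Gpihbp1 (0.81, SE 0.16, adjusted p = 0.0187) were higher in Balb/c hosts, 2 of 36 where 2.8% of all 14669 genes were higher. Nothing about the listed genes as a whole is read from a count this small. The median was 0.41, against -0.016 over all genes, and 30 were above 0. Esam, Cldn5, Calcrl, Aplnr and Gpihbp1 did not overlap between hosts, against 5.08% of all genes. The count was 8 without Balb/c ATRXKD mouse 59 (555 of all genes) and 1, Cldn5, without NSG ATRXKD mouse 30 (338 of all genes). Values below 0 were found for 4 genes in ATRXCT tumors (Rbp7, Vwf, Ecscr and Apln) and for 6 in ATRXKD tumors (Esm1, Apln, Vwf, Rbp7, Ecscr and Cd34). Of these, 1 in each had an unadjusted p under 0.05. They were Vwf in ATRXKD tumors, -0.27 (SE 0.09, adjusted p = 0.150), and Rbp7 in ATRXCT tumors, -0.77 (SE 0.27, adjusted p = 0.160), with 0.553 to 2.42 FPKM in Balb/c and 1.87 to 4.79 FPKM in NSG hosts. Each tumor group enters both a host and a knock-down comparison, so these values are not independent of those above.

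Within groups most of the 36 genes varied together from tumor to tumor. After subtracting group means over the 18 tumors, the Pearson correlation with the mean of the other 35 genes was 0.97 for Pecam1, 0.95 for Robo4, 0.94 for Tie1 and 0.93 for Kdr. It was 0.12 for Gpihbp1, 0.07 for Esm1, -0.32 for Cd34 and -0.49 for Ecscr, so that the most abundant pair of genes did not follow the rest. Among all other tested genes the correlation with the mean of the list had quartiles of -0.42 and 0.46. Many genes outside the list thus also vary with or against it, and the value of Cd34 lies between these quartiles. The points share libraries and the length slope. Genes outside the list with the closest pattern, out of 14767, were Inhbb (0.97), C130074G19Rik (0.97), Itga1 (0.96), Zfp521 (0.95), Itgb3 (0.95), Adcy4 (0.94), Pcdh12 (0.94), Prrg3 (0.94), Fgd5 (0.93) and Tshz2 (0.93), where the median gene had 0.05. None of these 10 passed the averaged comparison, with adjusted p between 0.0973 and 0.565.

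**Figure D4:**
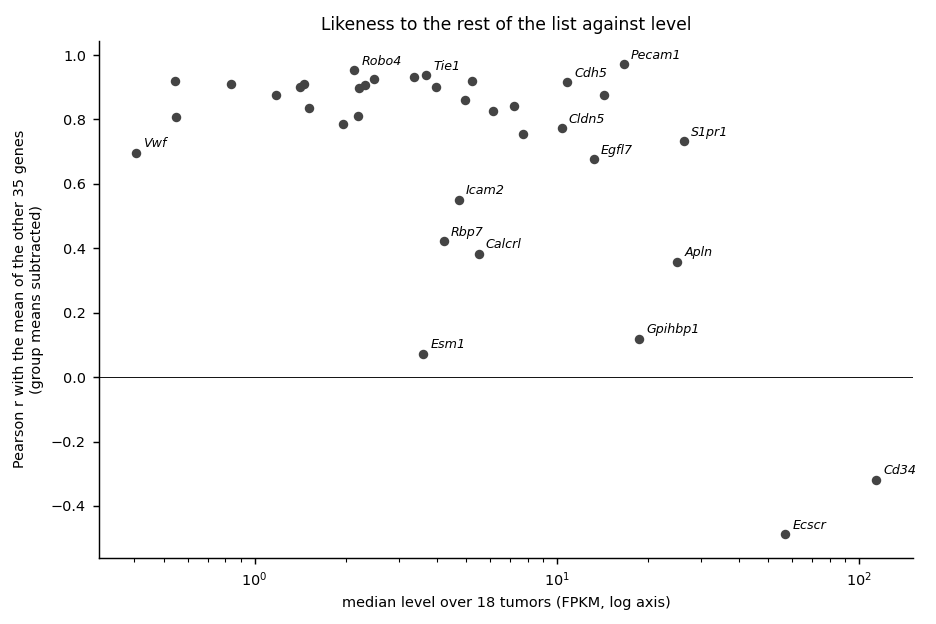
Each point is a listed gene, with its median level over 18 tumors in FPKM on a log axis against its Pearson correlation with the mean of the other 35 genes after subtracting group means. Most points lie in the upper part, Pecam1 at 0.97 is the highest, and the most abundant genes, Cd34 and Ecscr, are the only points below 0.

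Genes of the wider vessel pathways came from lists chosen by role. None of 7 VEGF ligands and coreceptors passed in any knock-down comparison, with a median averaged difference of 0.03. Vegfa had a mean of 22.1 FPKM in Balb/c ATRXCT, 24.7 in Balb/c ATRXKD, 21.5 in NSG ATRXCT and 24.3 in NSG ATRXKD tumors, and the largest averaged difference of the list was that of Pgf, placental growth factor, at 0.68 (SE 0.18, adjusted p = 0.0614). Of 4 angiopoietins and relatives, 2 rose in the averaged comparison, where 1.37% of all genes rose, and 1 fell, where 1.0% of all genes fell. Angpt2, made by endothelium at sprouting vessels, rose by 0.53 (SE 0.13, adjusted p = 0.0375), Angptl2 rose by 0.54 (SE 0.12, adjusted p = 0.0294) and Angpt1, the activating ligand of Tek, fell by 0.49 (SE 0.12, adjusted p = 0.0421). The mean of Angpt1 was 0.674 FPKM in Balb/c ATRXCT, 0.289 in Balb/c ATRXKD, 1.58 in NSG ATRXCT and 0.625 in NSG ATRXKD tumors. In NSG hosts Angpt2, Angptl2 and Angptl4 rose, where 3.73% of all genes rose, and Angpt1 fell, where 3.05% of all genes fell.

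The vessel basement membrane list had 9 of 10 averaged differences above 0, with a median of 0.41. Of 28 other endothelial surface and junction genes, Aqp1, a water channel, rose by 0.51 (SE 0.10, adjusted p = 0.0128) and Car4, a capillary carbonic anhydrase, by 0.47 (SE 0.11, adjusted p = 0.0326) in the averaged comparison, with a list median of 0.21 and 22 above 0. In NSG hosts 2 of the 28, Aqp1 and Podxl, rose. As 3.73% of all genes rose in NSG hosts, nothing is read from counts this small. Single genes of other lists that rose there are named for completeness: Ephb4, the venous ephrin receptor, among 9 Notch and ephrin genes, Gata2 among 15 transcription factors, Sele (E-selectin) among 5 genes of activated endothelium and Col18a1 among 10 of the vessel basement membrane. No gene of BMP and TGF-beta signalling (9 tested), of the adrenomedullin, S1P and apelin partners (8 tested) or of lymphatic endothelium (2 tested averaged over hosts) passed a knock-down comparison, and no gene of any of these lists passed in Balb/c hosts.

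Markers of other cell types moved beside the endothelial genes in part. All 9 adipocyte markers had averaged differences above 0 (median 0.77), and Pparg (0.64, SE 0.14, adjusted p = 0.0241) and Fabp4 (0.77, SE 0.20, adjusted p = 0.0462), both also active in capillary endothelium, passed. The summed adipocyte markers ran from 84.6 to 98.7 FPKM in Balb/c ATRXCT, 132 to 252 in Balb/c ATRXKD, 72.2 to 84.4 in NSG ATRXCT and 53.6 to 355 in NSG ATRXKD tumors. Adipoq, a defining adipocyte marker, had means of 0.440, 1.54, 1.04 and 6.65 FPKM in the same order and did not pass (0.96, SE 0.44, adjusted p = 0.266). The part of fat tissue in the values of Rbp7 and Gpihbp1 was not tested.

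Macrophage markers were lower in NSG ATRXKD than in NSG ATRXCT tumors, with a median of -0.55 over 12 genes and 3 (C1qb, Lyz2 and C1qc) falling where 3.05% of all genes fell, and summed to 2057 to 3626 FPKM against 3202 to 4465 FPKM. In Balb/c hosts their median was -0.12 and none passed. Pericyte and smooth muscle markers, of cells that wrap vessels, had a median of -0.02 averaged over hosts over 11 genes, with Kcnj8 passing at 0.47 (SE 0.10, adjusted p = 0.0253), and Mcam, shared with endothelium, rose in NSG hosts by 1.06 (SE 0.28, adjusted p = 0.0483). Of 6 platelet markers tested in NSG hosts, Pf4 fell by 0.80 (SE 0.21, adjusted p = 0.0445). No skeletal muscle, keratinocyte, T cell, red blood cell or osteoblast marker passed a knock-down comparison. Y-linked genes were lower in NSG ATRXKD than in NSG ATRXCT tumors, 3 of 4 passing with a median of -0.60, where 3.05% of all genes fell. The part of these cell types in the endothelial values was not tested.

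**Figure D5:**
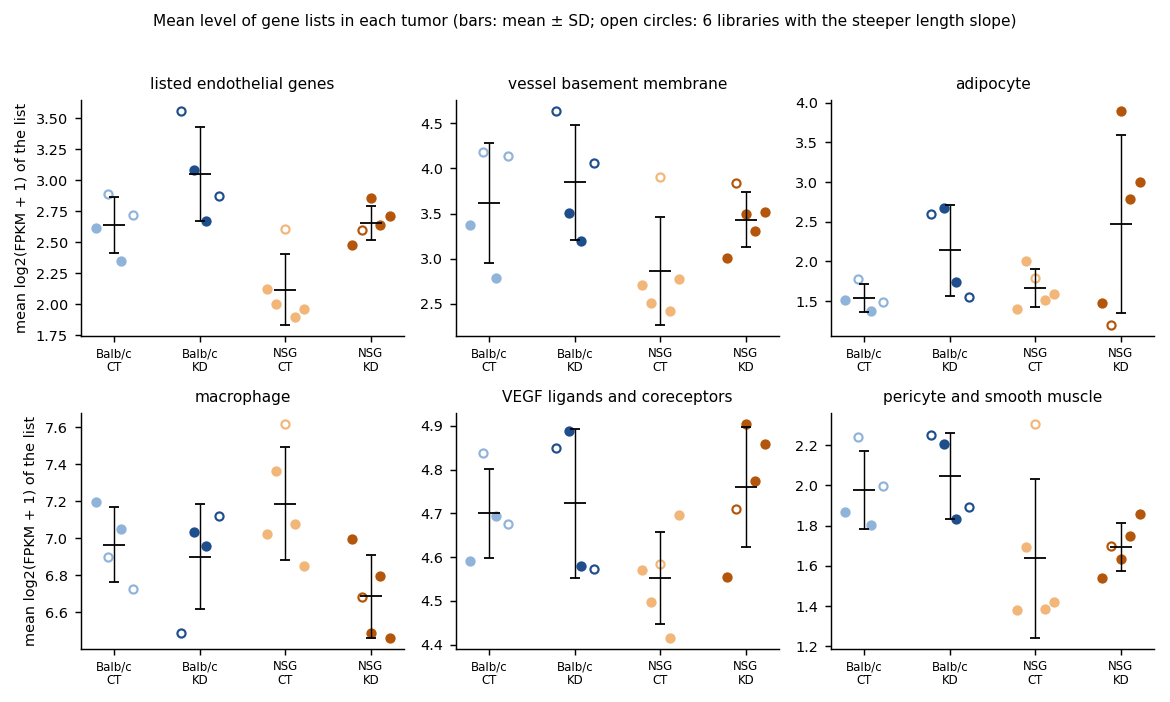
Mean log2(FPKM + 1) of 6 gene lists in each tumor, by host and shRNA (CT, ATRXCT; KD, ATRXKD), with bars for the group mean and SD and open circles for the 6 libraries with the steeper length slope. The listed endothelial genes are at 2.48 to 2.86 in NSG ATRXKD tumors and at 1.90 to 2.12 in NSG ATRXCT tumors other than mouse 3, whereas the macrophage mean is lower and the adipocyte mean more spread in NSG ATRXKD tumors.

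The difference was also read among tumors whose libraries had a like length slope. Among the 12 libraries without the steeper slope, the median ATRXKD minus ATRXCT difference of the 36 genes was 0.70 in NSG hosts (4 against 4 tumors, 36 of 36 above 0) and 0.37 in Balb/c hosts (2 against 2, 34 of 36). Among the steep libraries it was 0.49 in Balb/c hosts (2 against 2, 31 of 36) and 0.01 in NSG hosts (1 against 1, 18 of 36, with no replicate). By transcript length, 8 of the 18 shorter genes and 1 of the 18 longer genes passed the averaged comparison, with medians of 0.61 and 0.38 and a median length of 3303 bases. The difference between these sets was not tested. Shares over all shorter and all longer genes are not given, so nothing about the listed genes is read from this split.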

How the data were processed

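RNA from 18 K7M2 tumors (stranded, ribosomal RNA depleted) was aligned to mm10 by the authors with STAR 2.6.0c, duplicates were removed, and RefSeq gene levels were computed with Cufflinks 2.2.1 (versions from the submitters' processing notes). The deposited values are log2 (FPKM + 1) per gene and tumor, with no counts, and the base was read from the sum of FPKM times length. Fragment numbers were estimated from low values and are approximate: 34.7 to 39.3% of low values lay within 0.1 of a whole fragment, so no count test was run. The 92 spike-ins were removed, leaving 20878 genes. Each comparison was fitted with limma 3.58.1 (R 4.3.3, eBayes with trend) on log2(FPKM + 1), pseudocount 1, keeping genes whose mean reached 0.1 FPKM, two-sided, with Benjamini-Hochberg adjustment over all genes tested. The script was tested on simulated data. The 36 members and all gene lists were chosen with earlier results of these data known. Every tumor's value is given for Pecam1, Cdh5, Kdr and Tek and for the 12 genes with the smallest averaged adjusted p among those that passed a knock-down comparison, while Sox7, Esm1 and Dll4 also passed. Of other lists, at most 4 passing genes were named, and the 10 genes most correlated with the list mean. Genes of other lists named for another comparison were chosen after their values were seen. Coordinates are mm10, from the deposited RefSeq annotation. Each mouse is 1 tumor, and cages are not in the labels and nothing says that injected cells came from separate cultures, so p-values measure only the spread between these tumors. Alternatives were another pseudocount, other filters, size factors, sample weights, a length correction, a shared fit of all groups, a fold minimum and each tumor left out. A term for the library's length slope and leaving out tumors together were chosen after seeing the data.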

Additional observations from a re-analysis of the deposited data

Results flagged for a closer look

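Among 148 groups of tumors checked for a value far from the rest (listed genes and their means within a group), 12 were found. Independent values would give about 7.4, but these genes share libraries and vary together, so the 12 is not read against that number. NSG ATRXCT mouse 3 accounted for 9 of them. It was above the other 4 tumors of its group for Cdh5 (11.2 FPKM against 3.17 to 4.57), Flt4 (0.984 against 0.19995 to 0.355), Tek (1.76 against 0.549 to 0.777), Sox18 (5.41 against 1.97 to 2.26), Robo4 (2.16 against 0.658 to 0.904), Mmrn2 (3.19 against 0.606 to 0.959), Aplnr (4.90 against 0.996 to 1.62) and Ptprb (2.48 against 0.699 to 1.03), and below them for Ecscr (37.5 against 56.5 to 64.6). It is also the only library of its group with the steeper length slope. NSG ATRXKD mouse 26 was below its group for Tek (0.943 FPKM against 1.42 to 1.54) and Nos3 (0.995 against 1.45 to 1.56). Balb/c ATRXCT mouse 43 was above its group for Ramp2 (10.4 FPKM against 7.51 to 7.86).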

How the results depend on the processing

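Library weights with a robust prior moved the counts most: 22 of all genes and 1 listed gene passed in Balb/c hosts, 5414 and 33 in NSG hosts, 2517 and 24 averaged over hosts, 1985 and 5 for the difference between hosts (median -0.43), 3290 and 27 between hosts in ATRXCT and 1778 and 8 in ATRXKD tumors. With the length trend removed, 1841 of all genes and 16 listed genes passed in NSG hosts, 794 of all genes averaged over hosts, and 4 listed genes between hosts in ATRXKD tumors. A fold of at least 2 left 68 and 2 in NSG hosts, 18 and 1 averaged, 212 and 1 between hosts in ATRXCT and 204 and 1 in ATRXKD tumors. A fit of all 4 groups gave 16 of all genes in Balb/c hosts, 828 and 8 listed between hosts in ATRXCT tumors and 4 listed in ATRXKD tumors. A mean of at least 1 FPKM gave 0 of all genes in Balb/c hosts, 275 between hosts in ATRXCT and 328 in ATRXKD tumors. No filter gave 0 of all genes in Balb/c hosts and 0 listed genes between hosts in ATRXCT tumors, where a pseudocount of 0.1 gave a median of 0.80.

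Chosen after seeing the data, a term for the library's length slope gave 2616 and 23 in NSG hosts, 1326 and 21 averaged and 41 of all genes for the difference between hosts. Without the 6 steep libraries 7 of all genes passed in Balb/c hosts, 1854 and 28 listed in NSG hosts, 17 listed averaged and 2 of all genes for the difference between hosts (median -0.38). Without Balb/c ATRXKD mouse 56 and NSG ATRXCT mouse 3 together, 16 listed genes passed averaged. Where a count of listed genes stands in this section without the number of all genes, nothing about the listed genes is read from it. The cause of these changes was not tested.

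With each tumor left out in turn, all genes that passed ran from 0 to 2 in Balb/c hosts, 144 to 2080 in NSG hosts, 155 to 454 averaged, 0 to 1 for the difference between hosts, 276 to 975 between hosts in ATRXCT and 338 to 593 in ATRXKD tumors. Listed genes ran from 0 to 0, 1 to 28, 6 to 19, 0 to 0, 0 to 17 and 1 to 8 in the same order, and their medians from 0.20 to 0.56, 0.50 to 0.66, 0.43 to 0.58, -0.31 to 0.04, 0.39 to 0.66 and 0.27 to 0.58. For the single listed genes checked, 547 values stayed on their side of the threshold, 65 newly passed and 78 no longer passed. Some differences that did not pass changed sign over the leave-outs. In Balb/c hosts that of Flt1 ran from -0.46 to 0.14 and that of Sox7 from -0.01 to 0.42. No paired analysis was possible because the numbers in the labels are mouse numbers that no groups share. Depth limits the short and low genes most, with under 20 estimated fragments in a tumor for Rbp7, Sox7 and Sox17.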
